A study of Homo sapiens with 10 samples.

Results

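The sites described here are positions where the coactivator MAML3 was found in every library and the retinoic acid receptor RARα in none. The cells were of the established neuroblastoma line SK-N-SH, called control cells in the labels. They are 763 of 10581 sites (7.21%) made by merging the peaks of 8 chromatin immunoprecipitation and sequencing (ChIP-seq) lists, 1 per library, wherever peaks shared at least 1 bp. The members were chosen by the peak lists themselves: each holds a peak of all 4 MAML3 lists and of none of the 4 RARα lists, so their presence in the MAML3 lists and absence from the RARα lists is a description and not a finding. After 24 hours in charcoal-stripped serum the cells were given 1 µM retinoic acid (RA) or vehicle alone (UT, for untreated), with 2 libraries for each antibody and treatment. The groups are MAML3 UT, MAML3 RA, RARα UT and RARα RA, all from the same line, with no engineered allele named in the labels. Positions are on the hg19 build and counted from 1, and sites carry no gene names because an annotation of that build was not used here.

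Mastermind-like proteins are coactivators that do not bind DNA on their own. They are best known for joining the Notch intracellular domain and the DNA-binding protein RBPJ in a complex that turns on Notch target genes. RARα binds retinoic acid response elements as a heterodimer with a retinoid X receptor, and can occupy DNA with or without its ligand. Retinoic acid makes many neuroblastoma cells stop dividing and take on a more neuronal form. A MAML3 site at which the receptor is not called is thus a place where the coactivator was recovered without a listed peak of the receptor.

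How many peaks a list holds bears on both conditions of the rule. The MAML3 lists held 2222 and 6759 peaks in untreated cells and 7532 and 6230 after RA. The RARα lists held 1321 and 251 peaks in untreated cells and 1103 and 1064 after RA. How many reads lie behind these lists was not given in the sources used here. By the tags in their names, both MAML3 UT lists bear 1 library number and index, and the RARα UT list of 251 peaks is marked as merged. The labels do not explain either tag, nor whether replicates came from separate cultures, so agreement within a group may be technical. A site without a listed RARα peak is not shown to lack the receptor. Where sites are called RARα-free below, it means only that no RARα list held a peak there.

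Of the 1724 sites held by all 4 MAML3 lists, the 763 members made up 44.3% (95% Wilson interval 41.9 to 46.6, counting error only), and 961 carried a peak of at least 1 RARα list. The lists differ in length, and a given site could rank at different heights in them. Ranks are given as the score percentile, the place of a peak in its own list when peaks are ordered by the score that the authors deposited, from 0 for the lowest to 100 for the highest. The median member stood at the 42.3rd percentile of MAML3 UT list 1 and the 77.8th of UT list 2, and at the 75.7th and 68.7th of RA lists 1 and 2. The sites with RARα stood higher in every list, with medians of 69.5 and 89.8 in the UT lists and 90.4 and 87.9 in the RA lists. Peaks of the members filled 36.8% of UT list 1, the short list, against 10.1 to 12.2% of the other 3 MAML3 lists.

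**Figure D1:**
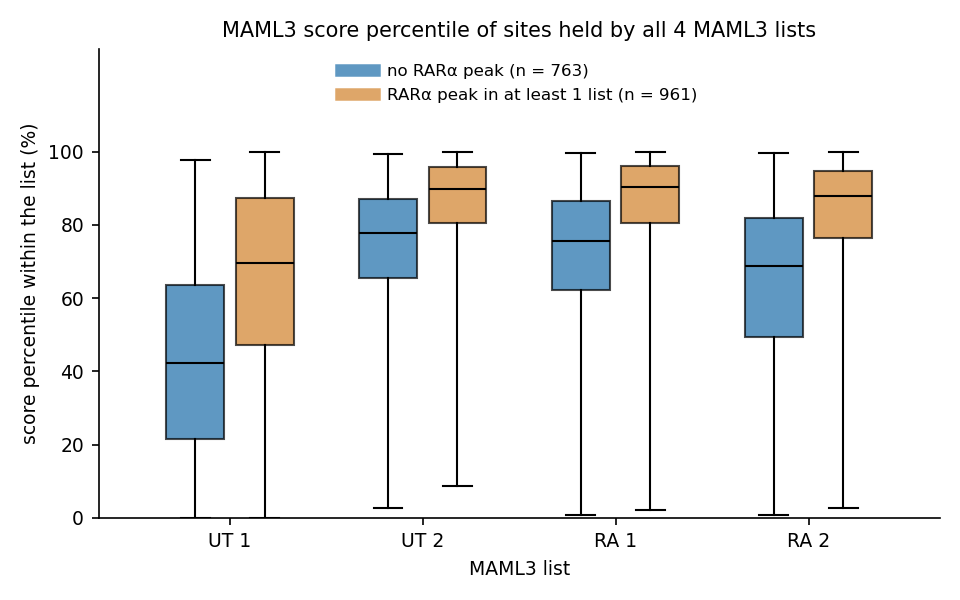
Score percentile (%, vertical axis) within each of the 4 MAML3 lists for the 763 sites without and the 961 sites with a RARα peak; boxes span the quartiles with the median as a line, and whiskers reach the lowest and highest site. The members' median lies below that of the sites with RARα in every list, from 42.3 against 69.5 in UT 1 to 77.8 against 89.8 in UT 2.

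The strongest MAML3 sites nearly all carried the receptor. With the 1724 sites ranked by their mean percentile over the 4 MAML3 lists, none of the first 50 was a member, 3 of the first 100 were, and the first member stood at rank 84. No member had a score of 3100 or more in any MAML3 list, whereas 2 to 15 of the sites with RARα did, depending on the list. In 4 classes of 431 sites by mean percentile, the share without RARα was 73.8% (interval 69.4 to 77.7) for the lowest, 54.3% and 35.0% for the next 2, and 13.9% (10.97 to 17.5) for the highest. These shares rest on the values that chose the members and were not tested. Even so, 60 sites of the highest class had no RARα peak in any list.

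**Figure D2:**
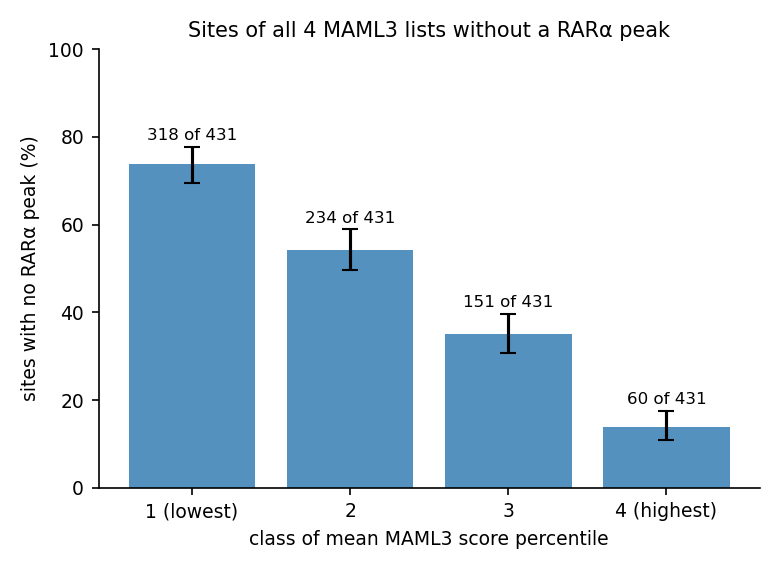
Share of sites with no RARα peak (%, vertical axis) in 4 equal classes of mean MAML3 score percentile (horizontal axis), with 95% Wilson intervals as bars and the counts above them. The share falls from 73.8% in the lowest class to 13.9% in the highest.

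The 20 highest-ranked members lay on 11 chromosomes, and the first was at chr8:80073376-80073952. Its MAML3 percentile was 97.1 and 98.9 in UT lists 1 and 2, and 98.6 and 95.9 in RA lists 1 and 2. The nearest site with any RARα peak was 33.6 kb away. The second member, at chr10:8343142-8343779, stood at 97.4 and 98.4 in the UT lists and at 97.4 and 96.6 in the RA lists. The third, at chr5:119592999-119593648, had 96.7 and 98.8 in the UT lists and 95.9 and 97.6 in the RA lists, and lay 394.1 kb from the nearest RARα peak. Each of these 3 was within the top 5% of every MAML3 list, in both treatments.

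Of the 10 highest members, 2 were on chromosome 7, at chr7:109735446-109736100 and chr7:133456446-133456996. The latter had the highest UT percentiles of all 763 members (97.7 and 99.3) but 97.5 and 88.9 in the RA lists. Chromosome 4 held 4 of the 20, of which 3 lay within 1 Mb of each other at chr4:95684599-95685099, chr4:96240200-96240811 and chr4:96434162-96434749, with mean percentiles of 96.0, 94.7 and 95.7. The member with the highest percentile in both RA lists was chr21:29629649-29630373. Its percentiles were 89.5 and 98.1 in the UT lists and 99.6 and 99.5 in the RA lists. A further member of the 20, chr2:29740219-29740718, varied little, with 93.9 and 95.9 in the UT lists and 95.4 in both RA lists.

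**Figure D3:**
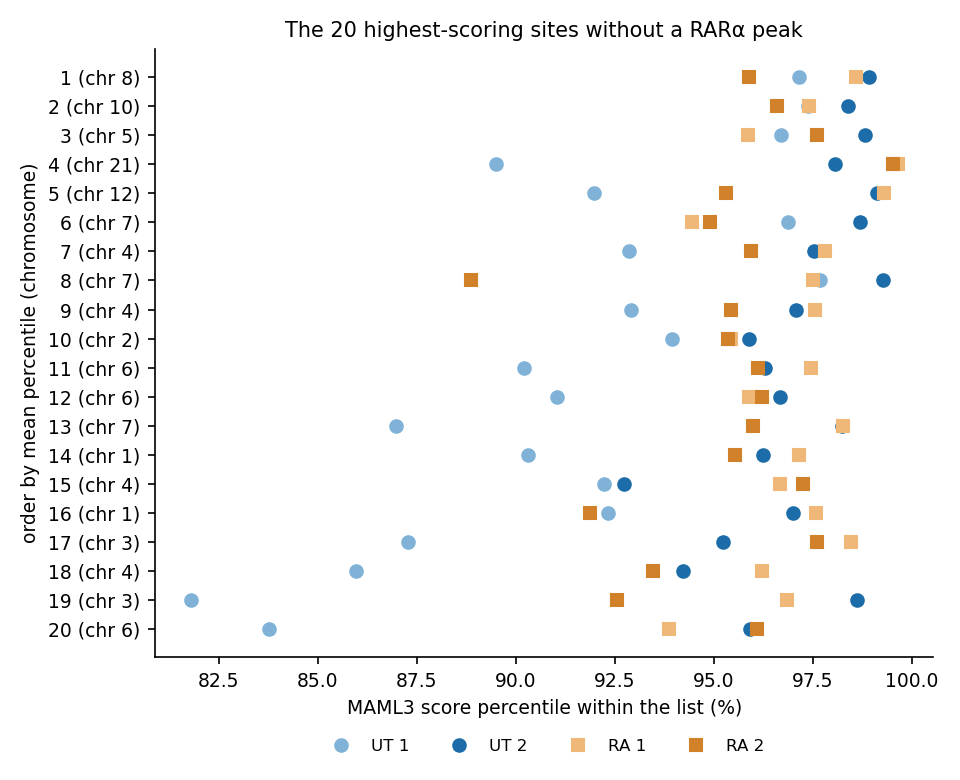
MAML3 score percentile (%, horizontal axis) of the 20 highest-ranked members (vertical axis, by order and chromosome) in the 4 MAML3 lists. UT list 1 gives the lowest value for most of these sites, down to 81.8, while the other 3 lists stay at 88.9 or above.

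At the low end the members reached the bottom of every list. The lowest, at chr4:96461350-96461699, stood at percentiles 5.0 and 7.07 in the UT lists and 25.5 and 16.2 in the RA lists. Its score in UT list 1 was 73.7, where the least score listed was 70.03. The next lowest were chr6:41698325-41698606 and chr4:99593750-99594062, with mean percentiles of 15.8 and 16.0. The lowest member and the ninth highest belonged to the same run of 3 members, which spanned 27.5 kb.

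Sites just outside the rule were counted by the list that kept them out. Exactly 1 RARα list held a peak at 384 of the sites of all 4 MAML3 lists. In 211 of these 384 (54.9%) that list was RARα UT list 1, the longest, in 82 and 86 it was RA list 1 or 2, and in 5 it was UT list 2. Those single RARα peaks stood at median percentiles of 20.1 to 37.4 in their own list. The highest-ranked such site, at chr15:37513222-37514258, had MAML3 percentiles of 98.4, 99.7, 99.0 and 98.9 and a peak in RARα RA list 1 alone. On the MAML3 side, 1948 sites had no RARα peak and 3 of the 4 MAML3 lists, and in 1823 of them (93.6%) the missing list was UT list 1. The highest of these, at chr12:71588256-71588859, stood at 94.6 in UT list 2 and at 95.8 and 93.7 in the RA lists. Most sites just outside were thus kept out by the shortest MAML3 list, or by the longest RARα list.

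When only the 2222 top peaks of each MAML3 list and the 251 top peaks of each RARα list were used, 826 of 1087 sites met the rule (76.0%). Of these 826 sites, 329 overlapped the 763 members and 497 overlapped sites that carried RARα in the full lists. With the MAML3 lists alone shortened, 329 of 1087 sites met the rule, and all 329 overlapped members (43.1% of the 763). That overlap was nearly fixed in advance. Removing MAML3 peaks alone can add a site to the rule only where a merged site is split.

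Each RARα list was also asked about sites that the other 3 lists left empty. The peaks it held there are the single RARα peaks counted above, set here beside the number of sites asked about. Among the 974 sites of all 4 MAML3 lists with no peak in RARα UT list 2 and both RA lists, UT list 1 held a peak at 211 (21.7%, Wilson interval 19.2 to 24.4). For RA lists 1 and 2 the same share was 9.70% of 845 sites and 10.1% of 849, and for UT list 2 it was 0.651% of 768. At sites where at least 1 of the other 3 lists had a peak, the shares were 71.5% for UT list 1, 48.9 and 52.1% for the RA lists, and 11.4% for UT list 2. Where 3 RARα lists were empty, the remaining one thus held a peak at 0.651 to 21.7% of sites.

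The converse question was whether MAML3 itself was found again at RARα-free sites by a library whose peaks were not required in choosing them. Sites were chosen on 3 MAML3 lists, divided by the absence or presence of a RARα peak, and looked up in the MAML3 list left out. The left-out list still took part in the merging of peaks into sites. Merging without RA list 2 gave 834 RARα-free sites and 993 with RARα, in place of 836 and 994. For the other lists these counts did not change. The sites found again were the 763 members and the 961 sites with RARα for every list, so these comparisons are not independent of the rule. RARα-free sites were found again less often in all 4 lists. For RA list 1 the shares were 95.6% of 798 RARα-free sites and 98.9% of 972 sites with RARα (Fisher's exact test, two-sided, odds ratio 0.250, adjusted p = 0.000137). For RA list 2 they were 91.3% of 836 and 96.7% of 994 (Fisher's exact test, odds ratio 0.359, adjusted p = 9.96e-06). UT list 2 held 97.8% of 780 and 99.7% of 964 (Fisher's exact test, odds ratio 0.140, adjusted p = 0.0019). UT list 1 held 29.5% of 2586 (interval 27.8 to 31.3) against 69.6% of 1380 (67.2 to 72.0), the widest gap (Fisher's exact test, odds ratio 0.182, adjusted p = 1.75e-130). All adjusted p-values are Benjamini-Hochberg values over 31 comparisons of shares. Sites are not replicates and neighbouring sites may not be independent, so the tests measure counting error within these libraries.

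The score of a site moved with this result. RARα-free sites chosen on the other 3 lists had a median percentile there of 55.5 against 83.6 for sites with RARα in the case of UT list 1. Within 4 classes of that percentile, UT list 1 still held RARα-free sites less often in each class, with 9.19 against 29% in the lowest class, 23.02 against 38.3% and 45.7 against 56.5% in the middle ones, and 77.9 against 90.4% in the highest (Fisher's exact test, unadjusted p at most 0.00123). For the other 3 lists no class passed the test (Fisher's exact test, unadjusted p from 0.0872 upward, with UT list 2 complete in the 2 upper classes of both kinds of site). The odds ratios within these classes ran from 0.173 to 1.27, some further from 1 than without classes, and all shares were 84.0% or more, which left little room for a difference to pass. The part of the score in the overall difference was not tested for these 3 lists. Within the highest class for UT list 1, RARα-free sites still ranked lower in the other lists (median 88.3 against 92.0). If the MAML3 UT lists come from 1 library, UT list 1 was not an independent look at these sites.

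**Figure D4:**
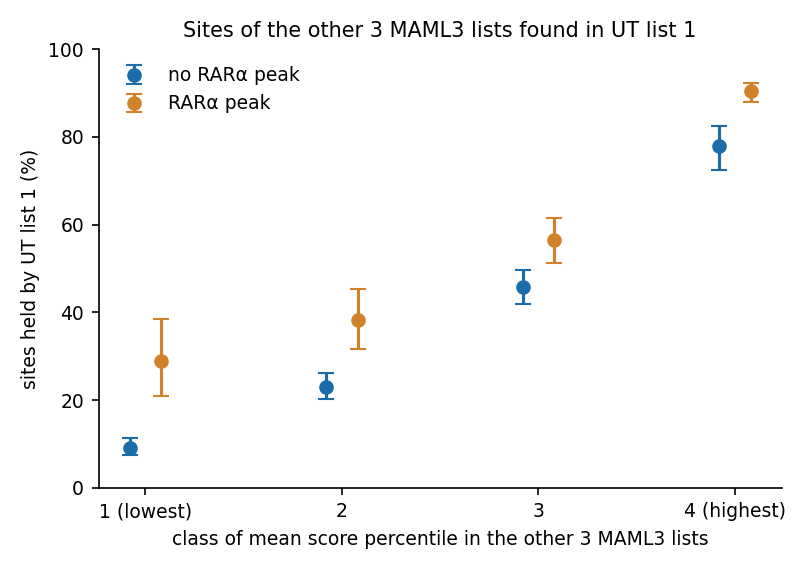
Share of sites chosen on the other 3 MAML3 lists that MAML3 UT list 1 also held (%, vertical axis), by class of mean percentile in those 3 lists (horizontal axis), with 95% Wilson intervals. In each class the RARα-free sites were found less often, from 9.19 against 29% to 77.9 against 90.4%.

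Whether the members ranked differently after RA was described within the 1724 sites of all 4 MAML3 lists, ranked in each list from 0 to 100, so that each list ranks the same number of sites. The median member stood at rank 33.6 in both UT lists and at 32.5 and 31.4 in RA lists 1 and 2. At 140 members (18.3%) both RA ranks lay above both UT ranks, and 22.1% of all 1724 sites did so. At 201 members (26.3%) both RA ranks lay below both UT ranks, beside 25.4% of all 1724. The remaining 422 members had overlapping ranks. The median RA minus UT difference was -2.32 for the members and -1.13 for the sites with RARα. No site was tested. The smallest two-sided p of an exact permutation test of 2 libraries against 2 is 0.33, and no model across sites was fitted to scores with no scaling between libraries.

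The members with the widest rank difference were constant in presence but not in score. At chr6:142952669-142953468 the ranks were 2.06 and 13.3 in the UT lists and 72.7 and 88.8 in the RA lists. At chr8:100648676-100649308 they were 3.39 and 0.841 in the UT lists and 50.4 and 75.7 after RA. The third, chr9:80365101-80365559, had ranks of 6.0 and 53.2 against 85.5 and 93.9, so the UT lists differed widely from each other there. In UT list 1 these 3 members had scores of 72.0, 73.7 and 75.7, where the least score listed was 70.03. The other 2 of the 5 widest differences in this direction were chr12:89602360-89602859 and chr3:73534890-73535489.

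In the opposite direction, chr20:9551241-9551751 had ranks of 87.2 and 70.3 in the UT lists and 15.6 and 30.3 in the RA lists. All 5 members with the widest difference in this direction had both RA ranks below both UT ranks. At chr14:100889822-100890321 the ranks were 91.7 and 88.5 in the UT lists and 60.8 and 7.98 in the RA lists, so the RA lists differed widely from each other. At chr1:99831046-99831499 RA list 2 was again the lowest, with ranks of 72.0 and 74.4 in the UT lists against 39.7 and 10.8. The others were chr5:16253599-16254099 and chr13:80221588-80222050, whose RA minus UT rank differences were -43.6 and -43.1. Among the members the order of scores was more alike between the RA lists (Spearman's rho 0.74 over 763 sites) than between the UT lists (0.58), and UT list 2 followed RA list 1 more closely (0.71) than it followed UT list 1. The 961 sites with RARα showed the same pattern, with 0.88, 0.76 and 0.83 for these 3 pairs of lists. These correlations are across sites of the same libraries and were not tested.

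**Figure D5:**
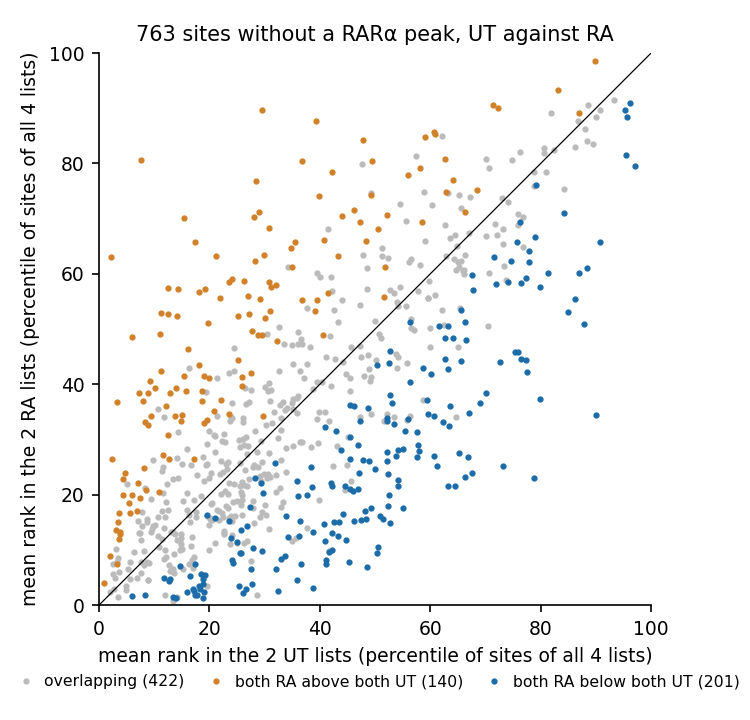
Mean rank of each of the 763 members in the UT lists (horizontal axis) and in the RA lists (vertical axis), as a percentile among the 1724 sites of all 4 MAML3 lists; the diagonal marks equal ranks. Members with both RA ranks above both UT ranks (140) and with both below (201) are coloured, and the 422 with overlapping ranks are grey.

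The members were spread over all autosomes and chromosome X, with 76 on chromosome 1, 66 each on chromosomes 4 and 5, and 2 each on chromosomes 19 and 22. The share of RARα-free sites among those of all 4 MAML3 lists ran from 18.2% on chromosome 22 (2 of 11) to 58.3% on chromosome X (14 of 24). In a comparison of the members with the sites with RARα on each of 23 chromosomes, 0 passed Fisher's exact test after adjustment and 0 had an unadjusted p under 0.05 (smallest p = 0.126, adjusted p = 0.487, chromosome 22). None of the 763 members lay in the outer 100 kb of the listed range of a chromosome, where 3 of the 961 sites with RARα lay.

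Most members had no other member nearby. With members joined into runs when at most 50 kb apart, 613 were single, 106 were in pairs, 39 were in 13 runs of 3, and 5 formed a single run. A MAML3 site of any kind lay within 50 kb of 563 members (73.8%). Another member lay within 50 kb of 19.7% of members, and a member within 50 kb of 20.3% of sites with RARα. That longest run was on chromosome 4 from 175057179 to 175181611, a stretch with 18 MAML3 sites, 9 of them in all 4 MAML3 lists, and 5 sites with RARα. Its 5 members had mean percentiles from 43.6 to 83.7, the highest at chr4:175151799-175152361, with 69.1 and 92.4 in the UT lists and 89.6 and 83.9 in the RA lists. The other 4 sites of all 4 MAML3 lists there carried RARα UT list 1, and 1 of them also RARα RA list 1. Members and sites with RARα were thus interleaved within this cluster.

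Of the next 4 runs, 3 held no RARα peak between their outermost members. RARα peaks did lie within 50 kb of these 3 runs. On chromosome 1 from 66956496 to 66967655, 3 members lay within 11.2 kb, with mean percentiles from 69.4 to 94.7. The region held 4 MAML3 sites and 0 sites with RARα, the nearest of which was 40.3 kb away. On chromosome 11 from 56917857 to 56926516, 3 members lay within 8.66 kb, also with 0 RARα sites inside, but a RARα site lay 5.39 kb away. The run on chromosome 3 from 139806836 to 139897889 spanned 91.1 kb, with 5 MAML3 sites and 0 with RARα inside, but a RARα site lay 7.37 kb away. The run on chromosome 7 from 132072396 to 132161745 had 7 MAML3 sites, of which 3 were members, and 1 site with RARα.

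Members had a MAML3 neighbour less often than the sites with RARα. Another MAML3 site lay within 10 kb of 302 of 763 members (39.6%, Wilson interval 36.2 to 43.1) and of 463 of 961 sites with RARα (48.2%, 45.0 to 51.3). The odds ratio was 0.705 (Fisher's exact test, adjusted p = 0.0019). Within classes of MAML3 score no class passed on its own (Fisher's exact test, unadjusted p from 0.245 to 0.846). From the lowest class to the highest, the shares were 31.1 against 37.2%, 43.2 against 42.1%, 48.3 against 46.8% and 48.3 against 55.8%. The odds ratios were 0.764, 1.04, 1.06 and 0.741, so the members' share was lower only in the lowest and highest classes. The part of the score in this difference was not tested. For neighbours held by all 4 MAML3 lists the shares were 14.02 and 18.5% (Fisher's exact test, adjusted p = 0.0581), which did not pass. Another member lay within 10 kb of 6.68% of members (interval 5.12 to 8.68) and 6.66% of sites with RARα (5.25 to 8.41, Fisher's exact test, adjusted p = 1).

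Members also had a listed RARα peak nearby less often, at positions that the rule did not use. The same 4 RARα lists set both the kind of site and its neighbours, so this comparison is not independent of the rule. Another site with a RARα peak lay within 10 kb of 80 members (10.5%, interval 8.51 to 12.9) and of 185 sites with RARα (19.3%, 16.9 to 21.9). The odds ratio was 0.491 (Fisher's exact test, adjusted p = 6.4e-06). The share was lower for the members in each of the 4 score classes, with 8.81 against 17.7%, 10.3 against 16.2%, 13.2 against 18.9% and 13.3 against 21.6%, although only the lowest class passed on its own (Fisher's exact test, unadjusted p = 0.0142, 0.0838, 0.141 and 0.169). Within 50 kb the shares were 28.0 and 38.1% (Fisher's exact test, unadjusted p = 1.26e-05). The median distance to the nearest other site with RARα was 175.8 kb for the members and 114.9 kb for the sites with RARα.

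At 10 members a RARα peak lay within 1 kb without overlap. The closest was 200 bp from chr4:96240200-96240811, where RARα RA list 1 alone had a peak at chr4:96239800-96239999 with no MAML3 peak. Beside chr21:29629649-29630373, RARα RA list 2 alone had a peak at chr21:29628912-29629107, which was 541 bp away. Both members are among the 20 highest described above, so their RARα-free status depends on peaks that do not touch. In the other 8 cases the neighbouring RARα site also held at least 2 MAML3 lists, and at chr1:208231596-208231999 that neighbour, 900 bp away, held all 4 MAML3 lists and 3 RARα lists.

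MAML3 peaks of the members were placed less tightly between libraries than those of the sites with RARα. The 4 peak centres of a member spanned a median of 88.5 bp (quartiles 54 and 137), against 65 bp (43 and 99) at sites with RARα. Centres of the RA lists were a median of 32 bp apart at members and 25 bp at sites with RARα, and centres of the UT lists were 53 and 35.5 bp apart. Median peak widths at members were 250 and 400 bp in the UT lists and 400 and 450 bp in the RA lists, and at sites with RARα they were 386 and 450 bp and 450 and 500 bp. The members also scored lower, and the part of the score in these distances was not tested.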

How the data were processed

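Peak lists of 8 ChIP-seq libraries were used, 2 per antibody and treatment. The labels name 10 samples, and the 2 inputs were not analysed here. BWA 0.5.9, MACS, bedtools and the hg19 build are named, per the submitters' processing notes, with no role or order. The peak threshold, the use of the inputs, and the filtering and intersection in the list names were not given in the sources used here. A score that the authors deposited stands beside each peak, with no header and no scaling between libraries. It was used only within a list. Read depth was not stated either.

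Peaks of all 8 lists sharing 1 bp or more were merged. Where a list had several peaks at a site, the highest counted. Distances run from edge to edge. Shares have 95% Wilson intervals and were compared with two-sided Fisher's exact tests, adjusted over 31 comparisons. The scripts were tested on simulated data. Members and lists of comparisons were chosen with earlier results of these data known. The comparisons with lists left out, of neighbouring RARα sites, of chromosomes and of RA with UT ranks were added after the data were seen. Named sites follow a fixed rule: the 20 highest members, the 5 longest runs (ties by mean percentile), the 5 widest RA minus UT differences each way, and the highest sites just outside. The plan took these differences in mean score percentile. Differences in rank were used in its place, which can pick other sites. The lowest members, members within 1 kb of RARα, chr4:175151799-175152361 and chromosome extremes were named after their values were seen. The planned gene starts, gene lists, CpG and motif shares were not run, since a genome of this build was not used here, and no sequence is shown. Alternatives were stricter or wider joining, shorter lists, other RARα conditions, score classes, other distances and each library left out. Python 3.11.15, numpy 2.4.6, pandas 2.3.3, scipy 1.17.1 and matplotlib 3.10.9 were used.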

Additional observations from a re-analysis of the deposited data

How the results depend on the processing

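No paired analysis was possible because no reported result comes from a test between treatments. A fit across sites was not run on scores with no scaling between libraries. The number of members was within 1.5 times of 763 under stricter and wider joining, omission of sites within 1 kb of RARα and omission of chromosome Y. It was also within that range with both antibodies' lists at equal length (826), but 497 of those sites carried RARα in the full lists. It was 329 with the MAML3 lists alone at equal length, which was tried after the data were seen, 468 with the top 50% of peaks, 1147 when 2 RARα lists were needed to exclude a site, and 768 to 2586 with 1 library left out, the last without MAML3 UT replicate 1. The RARα-free share of 44.3% became 50.9% with the top 50% of peaks, 76.0% with both antibodies' lists at equal length, 30.3% with the MAML3 lists alone at equal length, 66.5% when 2 RARα lists were needed, and 44.5 to 65.2% with 1 library left out. In MAML3 lists of equal length the median percentile of the 329 sites that met the rule was 59.5 and 61.0 in the UT lists and 56.6 and 51.3 in the RA lists, so the order of the lists changed.

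The odds ratio for another MAML3 site within 10 kb (0.705) was 0.846 with the top 50% of peaks (Fisher's exact p = 0.222), 0.811 at 50 kb (p = 0.0695), and 0.764, 1.04, 1.06 and 0.741 in the 4 score classes, none of which passed. With 1 library left out it was 0.654 to 0.761. For a RARα neighbour it was 0.589, 0.654 and 0.560 in the upper 3 score classes, which did not pass, and 0.427 to 0.531 with 1 library left out. For MAML3 lists left out of the choice, the odds ratios by score class from the lowest were 0.770, 0.219, 1.17 and 0.173 for RA list 1, 0.577, 1.27, 0.648 and 0.249 for RA list 2, and 0.392 and 1.11 in the lower 2 classes for UT list 2, none of which passed. Members with RA ranks above UT ranks numbered 228 to 260, and below 284 to 345, with 1 MAML3 library left out, since fewer ranks must then be ordered. These were 29.9 to 34.1% and 37.2 to 45.2% of members, beside 31.4 to 36.8% and 37.2 to 44.0% of all 1724 sites. With ranks taken among the members alone and all 4 MAML3 libraries kept, 160 members lay above and 183 below, in place of 140 and 201. The causes of the other changes were not tested. Gene starts, CpG and motif alternatives were not run. Since read depth was not given, how far it limits the calls of absence could not be measured.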

Other observations

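Sites gained with RA, meaning those held by both MAML3 RA lists and neither UT list, lay within 50 kb of some members. This was so for 16 of the 140 members whose RA ranks were above their UT ranks (11.4%), for 9 of the 201 whose RA ranks were below (4.48%), and for 37 of the 422 with overlapping ranks (8.77%). No such share is given here for the sites with RARα, so these shares have no background outside the members. The same MAML3 lists define both the gained sites and the ranks, so the shares were not tested. A site with RARα lay within 50 kb of 30.0, 35.3 and 23.9% of these members, and a site whose RARα peaks came from RA lists alone lay within 50 kb of 7.86, 9.45 and 7.11%.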
